A study of Mus musculus with 6 samples.

Results

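The proteasome genes of mouse gastrocnemius, the large calf muscle, are described here: 48 genes of 35491 named entries in the deposited tables. They were taken by name, as every symbol that starts with Psma, Psmb, Psmc, Psmd, Psme, Psmf or Psmg and ends in a number. Of these, 16 encode the core particle, 17 the regulatory particle, 5 the immunoproteasome and its PA28 activator, and 10 other activators, an inhibitor and assembly chaperones. RNA was sequenced from 3 Ogg1Tg and 3 Control male mice, 1 library each, aged 20 weeks, on a chow diet and with no other treatment. The Ogg1Tg mice carry a transgene for human OGG1-1a, a DNA repair enzyme that removes oxidised guanine. In it the enzyme is fused to a signal that sends it into mitochondria, and a CMV/AG promoter, of a kind known to be active in most tissues, drives it. The Control mice are C57BL/6J, which is also the strain background given for the Ogg1Tg mice. The labels state neither litters nor how many founder lines were used, and the p-values measure the spread between these 6 mice. The comparison asks how the muscle of Ogg1Tg mice differs from that of Control mice.

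The proteasome is the large protease that degrades proteins tagged with ubiquitin. Its core particle is a barrel of stacked rings. The outer rings are built from alpha subunits (Psma genes) and act as a gate. The inner rings are built from beta subunits (Psmb genes), of which Psmb5, Psmb6 and Psmb7 carry the cutting sites. A regulatory particle caps the barrel: its base holds ATPases (Psmc genes) that unfold the substrate, and its lid and base hold Psmd subunits that bind ubiquitin chains or remove them. Interferon induces a set of replacement catalytic subunits, Psmb8, Psmb9 and Psmb10, and the PA28 activator, encoded by Psme1 and Psme2. The particle that contains them, the immunoproteasome, is abundant in immune cells and makes peptides for display on class I molecules. In skeletal muscle the ubiquitin-proteasome system is known for breaking down contractile proteins during atrophy.

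Values are reads per gene scaled by 1 factor per library, called scaled reads below. Reads in named genes came to between 45189860 and 56126407 in the Ogg1Tg libraries, and to between 48393073 and 52070991 in the Control libraries. Mouse Ogg1 had 176, 201 and 193 scaled reads in Ogg1Tg replicates 1, 2 and 3, against 154, 225 and 193 in Control replicates 1, 2 and 3. Its count is not a count of the human transgene and does not check the labels. One library, Ogg1Tg replicate 3, differed from all others. Its summed level of 20 lymphocyte and neutrophil markers was 23709 scaled reads, with the other Ogg1Tg libraries at 612 and 575, against 586 to 739 in the Control libraries. Ly6g, a neutrophil marker of that list, was at 0 in all 6 libraries. The other 19 markers, among them S100a8, S100a9 and Csf3r, were all highest in Ogg1Tg replicate 3. Cd22, a B cell marker, had 2737 scaled reads in that library. Of 16 macrophage and dendritic cell markers, 15 were highest in Ogg1Tg replicate 3. Of 12 adipocyte markers 9 were highest there, but their summed level in that library, 54892 scaled reads, lay inside the range of the others, at 65915 and 42490.4 in the other Ogg1Tg libraries, against 54318 to 70719.6 in the Control libraries. The summed level of 12 skeletal muscle markers was 4597640 scaled reads in Ogg1Tg replicate 3, with 6825890 and 8568970 in the other Ogg1Tg libraries, against 7242620 to 9272200 in the Control libraries. Results for the classes and the main members are therefore given with and without it. In whole muscle, fewer cells of a type and less RNA per cell cannot be told apart.

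All 48 genes had a mean of at least 1 scaled read over the 6 libraries and were tested. Psma8 and Psmb11 aside, the median level of the constitutive subunits was well above that of the immunoproteasome and PA28 genes. Per kilobase of exon (kb), the 31 constitutive core and regulatory subunits had a median of 1123 scaled reads in Ogg1Tg and 1172 in Control. The lowest of them was Psmd13, a lid subunit, at 429 per kb in Ogg1Tg and 439.8 per kb in Control. The highest of the 31 was Psma6 in Ogg1Tg, at 2295 per kb, and Psmd2 in Control, at 2518 per kb. The 5 immunoproteasome and PA28 genes had a median of 148 scaled reads per kb in Ogg1Tg and 122 in Control. Psmb9 was the lowest of these at 40.0 per kb in Ogg1Tg and 19.1 per kb in Control, and Psme1 the highest at 358 per kb in Ogg1Tg and 379.8 per kb in Control. Psme1 exceeded Psmd13 in Ogg1Tg replicate 3, at 464 against 334 per kb, and in Control replicate 2, at 458 against 430. In the other libraries Psmd13 was the higher. The highest member of all was Psme4, which encodes the activator PA200, at 2693 per kb in Ogg1Tg and 3606 per kb in Control. Psma8, the alpha subunit of the testis, was the lowest, with 0, 0 and 7 reads in the Ogg1Tg libraries against 4, 6 and 4 reads in the Control libraries. Psmb11, the beta subunit of the thymic cortex, stood at a mean of 72.6 per kb in Ogg1Tg and 75.5 per kb in Control, which was above the means of Psmb8 and Psmb9 in both groups. In Ogg1Tg replicate 3 the order was reversed, at 81.3 per kb for Psmb11, against 122 for Psmb8 and 85.7 for Psmb9. Levels per kb depend on the length used, the union of all annotated exons. In scaled reads, that library had 389 for Psmb11, 412 for Psmb8 and 314 for Psmb9.

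**Figure D1:**
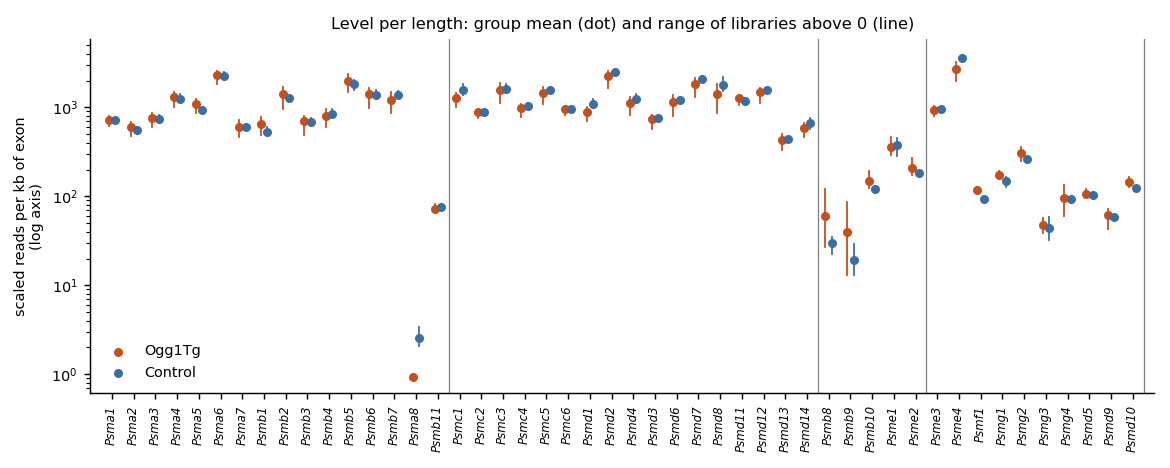
Scaled reads per kilobase of exon, on a log axis, for each of the 48 genes in Ogg1Tg and Control muscle (dot: mean of 3 libraries; line: range of the libraries above 0). Vertical lines separate core particle, regulatory particle, immunoproteasome with PA28, and other genes. Psmb8 and Psmb9 lie below the constitutive subunits in both groups, and Psme4 is the highest gene.

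No proteasome gene passed the test between the groups. In limma, at an adjusted p under 0.05 (Benjamini-Hochberg over 23312 genes), 0 of 48 were called, where 0.545% of all genes were called. At an unadjusted p under 0.05, 1 of 48 was higher (Psmf1), where 4.24% of all genes were, and 0 were lower, where 6.78% of all genes were. Tests on recovered reads also called 0 of 48: edgeR called 0.532% of all genes and DESeq2 2.66%, and each gave 2 members at an unadjusted p under 0.05 (Psma5 and Psmf1 in edgeR, Psme4 and Psmf1 in DESeq2), where 11.6% of all genes in edgeR and 10.9% in DESeq2 did. With Ogg1Tg replicate 3 left out, limma called 1.86% of all genes and edgeR 1.76%, and again 0 of 48 members. At an unadjusted p under 0.05, 10 members were then higher in limma, where 5.72% of all genes were, and 2 were lower (Psma8 and Psme4), where 8.15% were. Over every setting tried, 863 fits of a member gave 0 calls, and the lowest adjusted p was 0.0875, for Psmb1 in edgeR without Ogg1Tg replicate 3. The standard errors of the log2 fold changes had a median of 0.18 over the members, from 0.13 for Psmf1 to 0.94 for Psma8. A p above the threshold does not show that the groups are alike, so the 95% interval is given for the members the results turn on.

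**Figure D2:**
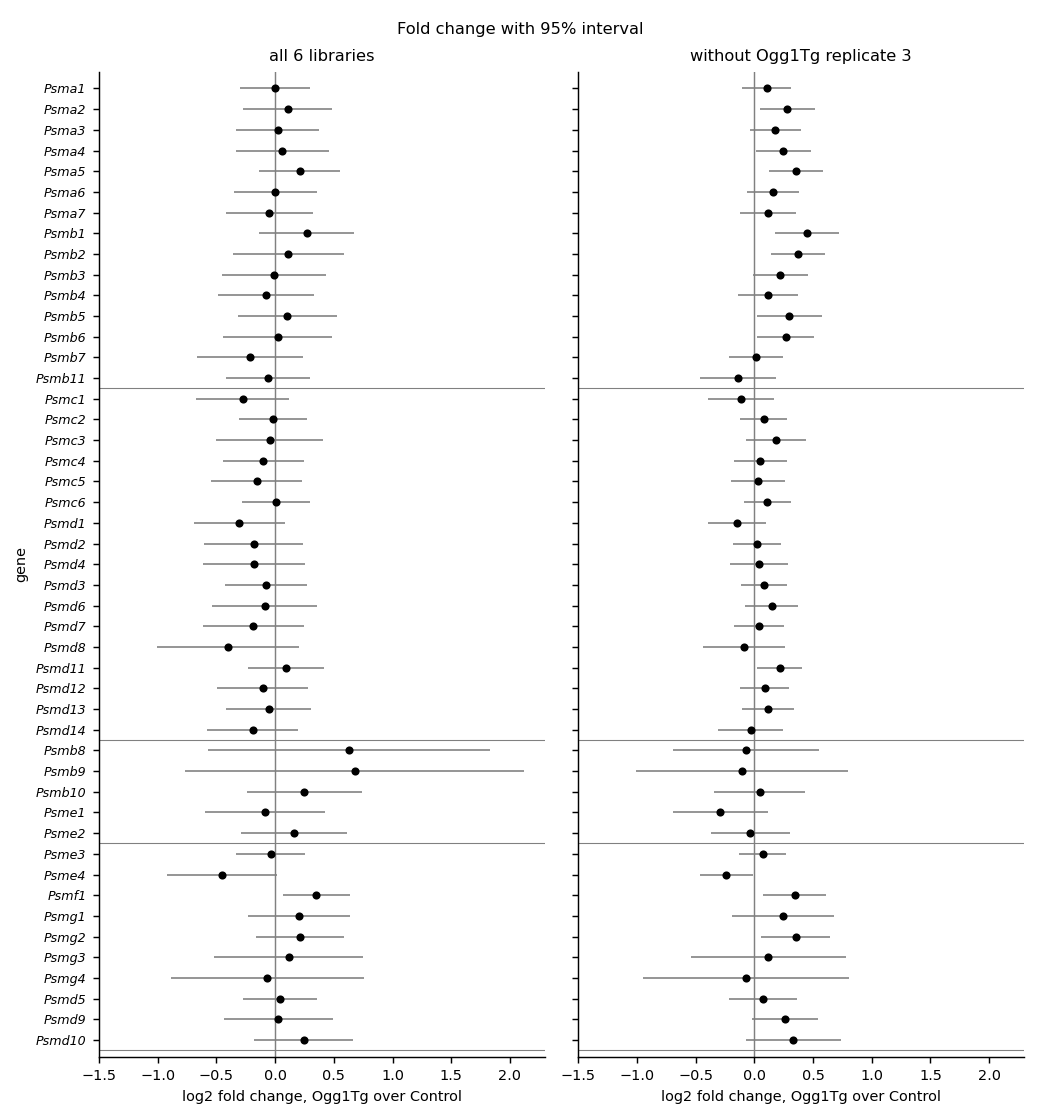
Log2 fold change of Ogg1Tg over Control from limma with its 95% interval, for 47 members (Psma8, whose interval is far wider, is left out), with all 6 libraries on the left and without Ogg1Tg replicate 3 on the right. Horizontal lines separate the classes. With all libraries only the interval of Psmf1 lies clear of 0. Without Ogg1Tg replicate 3 the points of the core subunits lie to the right of 0 apart from Psmb11. The intervals of 7 of these 14 lie clear of 0, and none of them was called.

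The core particle showed no common difference between the groups over all 6 libraries, and 2 opposite departures within the Ogg1Tg group. The median log2 fold change over its 16 genes was 0.01, with 9 above 0, beside −0.02 over all genes tested, of which 47.2% were above 0. With Ogg1Tg replicate 3 left out the median was 0.20, with 14 above 0, beside −0.04 and 44.5% of all genes. Set against the Control mean on the log2 scale, the median of the 14 constitutive core genes was 0.25, 0.21 and −0.31 in Ogg1Tg replicates 1, 2 and 3, against 0.14, −0.06 and −0.08 in Control replicates 1, 2 and 3. In Ogg1Tg replicates 1 and 2, 10 of these 14 were above every Control library, where 13.1% of all genes were. These genes share the same libraries and are not independent of each other.

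Among the alpha subunits, log2 fold changes ran from −0.05 for Psma7 to 0.21 for Psma5. Psma5 had 1639.5, 1489.6 and 1145 scaled reads in Ogg1Tg replicates 1, 2 and 3, against 1273, 1231 and 1156 in Control replicates 1, 2 and 3. Its Ogg1Tg libraries lay on both sides of the Control range, replicates 1 and 2 above it and replicate 3 below, at a log2 fold change of 0.21 ± 0.15 (SE) and an adjusted p of 0.656 in limma. Psma7 had 2190.5, 1860.0 and 1434 scaled reads in the Ogg1Tg libraries, against 1991, 1823 and 1786 in the Control libraries. The groups overlapped, at a log2 fold change of −0.05 ± 0.16 (SE) and an adjusted p of 0.932 in limma. The log2 value of Psma7 was 0.11 without Ogg1Tg replicate 3. As deposited, all 7 alpha genes were lowest in Ogg1Tg replicate 3, where 30.8% of all genes were lowest. That count was 5 of 7 with median-of-ratios rescaling and 1 of 7 with quantile normalization, under which the alpha median in that library was −0.03, against −0.29 as deposited. Over all 23312 genes tested it was 6205 with median-of-ratios rescaling and 8384 with quantile normalization. As deposited, 5 of the 7 were above every Control library in Ogg1Tg replicates 1 and 2, where 13.1% of all genes were.

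Of the 4 structural beta subunits, Psmb1 had the highest log2 fold change and Psmb4 the lowest. Psmb1 had 3616, 2991 and 2269 scaled reads in Ogg1Tg replicates 1, 2 and 3, against 2729, 2307 and 2220.2 in Control replicates 1, 2 and 3. Ogg1Tg replicates 1 and 2 exceeded every Control library and replicate 3 fell within the Control range, which made Psmb1 the one constitutive subunit whose lowest library was not Ogg1Tg replicate 3. Its log2 fold change was 0.27 ± 0.18 (SE) with an adjusted p of 0.618, and 0.45 without that library, with an adjusted p of 0.114, both in limma. Psmb4 had 1857, 1689 and 1187 scaled reads in the Ogg1Tg libraries, against 1851, 1559.6 and 1513 in the Control libraries, a log2 fold change of −0.08 ± 0.18 (SE) and an adjusted p of 0.9 in limma. The log2 value of Psmb4 was 0.12 without Ogg1Tg replicate 3.

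The catalytic subunits are Psmb5, which cuts after hydrophobic residues, Psmb6, which cuts after acidic ones, and Psmb7, which cuts after basic ones. The promoters of Psmb5 and Psmb6 are shown because both hold the letters TGACNNNGC, the core of the antioxidant response element that the proteasome regulators Nfe2l1 and Nfe2l2 recognise. The sequences are RefSeq windows on GRCm38.p6, from 250 bases before to 50 after the gene's start, written along the gene's strand, and the capitals mark the match.
Psmb5, chr14:54617946-54618245, minus strand: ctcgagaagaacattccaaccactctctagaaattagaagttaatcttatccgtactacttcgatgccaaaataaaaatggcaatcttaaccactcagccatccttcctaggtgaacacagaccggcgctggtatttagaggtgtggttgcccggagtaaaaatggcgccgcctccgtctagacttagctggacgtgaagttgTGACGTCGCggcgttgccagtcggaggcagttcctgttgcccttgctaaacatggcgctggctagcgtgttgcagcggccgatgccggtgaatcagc
Psmb6, chr11:70525107-70525406, plus strand: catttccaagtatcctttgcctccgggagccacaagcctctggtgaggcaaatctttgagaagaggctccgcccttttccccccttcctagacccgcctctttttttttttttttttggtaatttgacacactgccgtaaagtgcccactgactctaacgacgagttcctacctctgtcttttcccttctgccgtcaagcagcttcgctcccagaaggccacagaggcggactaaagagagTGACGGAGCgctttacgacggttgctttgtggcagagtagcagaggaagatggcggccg
Psmb5 had 2145, 1859 and 1329.8 scaled reads in Ogg1Tg replicates 1, 2 and 3, against 1809.7, 1662 and 1421 in Control replicates 1, 2 and 3. Psmb6 had 3058, 3090.3 and 1846 scaled reads in the Ogg1Tg libraries, against 2908, 2449 and 2343 in the Control libraries. In both, Ogg1Tg replicate 3 was below all other libraries and Ogg1Tg replicates 1 and 2 were above all Control libraries. For Psmb5 the log2 fold change was 0.10 ± 0.19 (SE) with an adjusted p of 0.864 in limma, and 0.30 without Ogg1Tg replicate 3, with an adjusted p of 0.315. For Psmb6 it was 0.02 ± 0.21 (SE) with an adjusted p of 0.978 in limma, and 0.27 without that library, with an adjusted p of 0.309. Psmb7 had 4524, 5065 and 2942 scaled reads in the Ogg1Tg libraries, against 5231, 4528 and 4468 in the Control libraries. Its groups overlapped also without Ogg1Tg replicate 3, at log2 fold changes of −0.22 ± 0.20 (SE) with all libraries and 0.02 without that one, and the adjusted p in limma was 0.72 and 0.967. Part of its exons, 11.8%, overlaps Nek6 on the opposite strand, and 12.1% of those of Psmb5 overlap a microRNA gene, so reads there may not be theirs alone.

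The tissue-restricted core subunits were outside this pattern. Psmb11 had 327, 328 and 389 scaled reads in Ogg1Tg replicates 1, 2 and 3, against 347, 345 and 393 in Control replicates 1, 2 and 3. The groups overlapped, at a log2 fold change of −0.06 ± 0.16 (SE) and an adjusted p of 0.915 in limma. Psma8, with 7 reads over the Ogg1Tg libraries and 14 over the Control libraries, is too low for a fold change. Its limma adjusted p was 0.509 with all libraries and 0.142 without Ogg1Tg replicate 3.

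**Figure D3:**
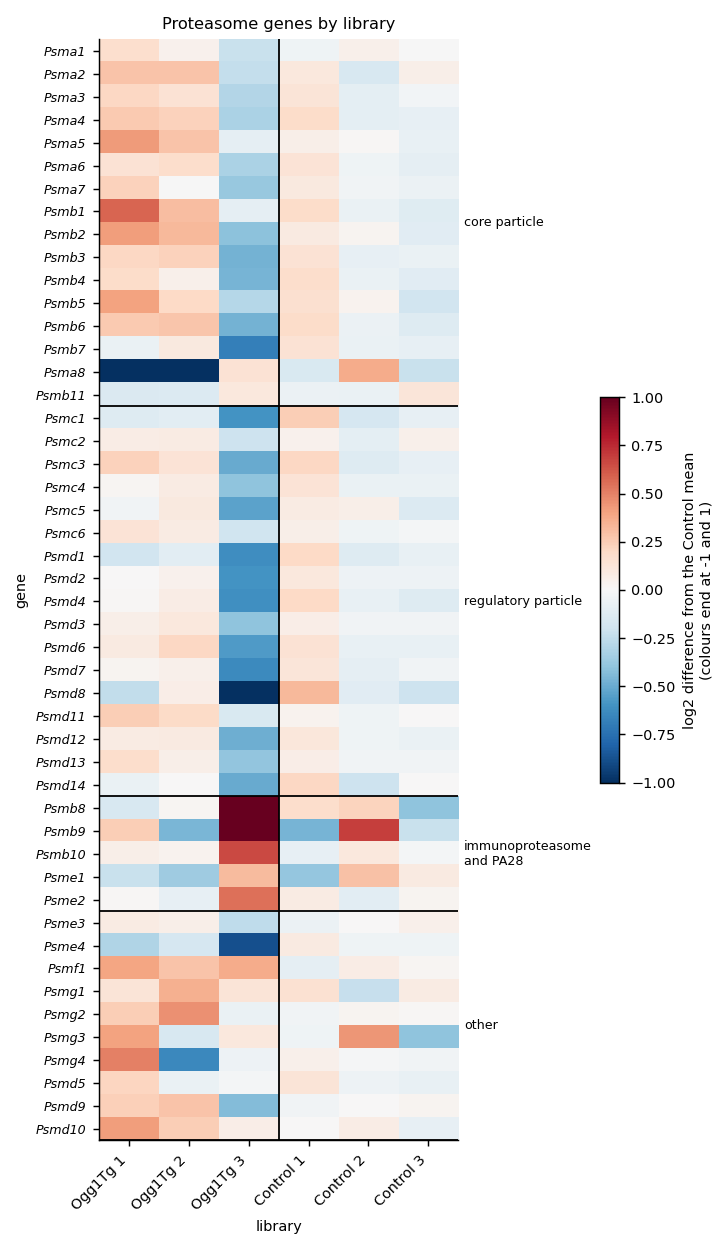
Log2 difference of each library from the Control mean for the 48 genes (rows, by class) in the 3 Ogg1Tg and 3 Control libraries (columns); red is above and blue below the Control mean, and colours end at −1 and 1. The column of Ogg1Tg replicate 3 is blue for nearly all core and regulatory subunits and red for the immunoproteasome.

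The regulatory particle stood slightly below Control with all libraries, and not without Ogg1Tg replicate 3. The median log2 fold change over its 17 genes was −0.10, with 2 above 0, beside −0.02 over all genes tested, of which 47.2% were above 0. That median shrank under the other scalings, to −0.05 with median-of-ratios rescaling and to near 0, at −0.01, with quantile normalization. Leaving out Ogg1Tg replicate 3 put it at 0.05 as deposited, with 13 above 0, beside −0.04 and 44.5% of all genes. The per-library medians were 0.02, 0.08 and −0.51 in Ogg1Tg replicates 1, 2 and 3, against 0.12, −0.07 and −0.07 in Control replicates 1, 2 and 3. All 17 genes were lowest in Ogg1Tg replicate 3, where 30.8% of all genes were lowest in that library. With quantile normalization 14 of 17 were lowest there, where 8384 of all 23312 genes tested were.

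Among the 6 ATPases, log2 fold changes ran from −0.28 for Psmc1 to 0.01 for Psmc6. Psmc1 had 2733, 2775 and 1965 scaled reads in Ogg1Tg replicates 1, 2 and 3, against 3543, 2652 and 2819 in Control replicates 1, 2 and 3. Psmc6 had 3646, 3508 and 2879.9 scaled reads in the Ogg1Tg libraries, against 3456, 3213 and 3267 in the Control libraries. Psmc1 was highest in Control replicate 1 and its groups overlapped, at −0.28 ± 0.17 (SE) and an adjusted p of 0.601 in limma. Psmc6 differed from it in that Ogg1Tg replicates 1 and 2 were above every Control library, as for Psmc2, at a log2 fold change of 0.01 ± 0.13 (SE) and an adjusted p of 0.989 in limma. With Ogg1Tg replicate 3 left out, the log2 values were −0.11 for Psmc1 and 0.11 for Psmc6.

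The other base subunits are Psmd1 and Psmd2, the large scaffold proteins, and Psmd4, a ubiquitin receptor. Psmd1 had 6851, 7287 and 5075 scaled reads in Ogg1Tg replicates 1, 2 and 3, against 8990.4, 7152 and 7439.7 in Control replicates 1, 2 and 3. Psmd4 had 3512, 3668 and 2280.4 scaled reads in the Ogg1Tg libraries, against 4001, 3325 and 3200.4 in the Control libraries. Each was highest in Control replicate 1 and lowest in Ogg1Tg replicate 3, as was Psmd2. The log2 fold change of Psmd1 was −0.31 ± 0.17 (SE) with an adjusted p of 0.556 in limma, and that of Psmd4 was −0.18 ± 0.19 (SE) with an adjusted p of 0.757. With Ogg1Tg replicate 3 left out, the log2 values were −0.15 for Psmd1 and 0.04 for Psmd4.

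In the lid, Psmd8 had the lowest log2 fold change of the 8 genes and Psmd11 the highest. Psmd8 had 4539, 5617 and 2651 scaled reads in Ogg1Tg replicates 1, 2 and 3, against 6733, 4960.1 and 4659.6 in Control replicates 1, 2 and 3, a log2 fold change of −0.40 ± 0.27 (SE) and an adjusted p of 0.619 in limma. The log2 value of Psmd8 was −0.09 without Ogg1Tg replicate 3. Psmd11, a lid subunit that stabilises the joint between core and regulatory particle, had 8854, 8522 and 6714 scaled reads in the Ogg1Tg libraries, against 7666, 7271 and 7506 in the Control libraries. Its Ogg1Tg replicates 1 and 2 were above every Control library, and it was the one lid gene with that order. The log2 fold change of Psmd11 was 0.09 ± 0.14 (SE) with an adjusted p of 0.838, and 0.22 without Ogg1Tg replicate 3, with an adjusted p of 0.289, both in limma. Psmd14, the lid enzyme that removes ubiquitin chains, had log2 fold changes of −0.19 with all libraries and −0.03 without Ogg1Tg replicate 3.

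The immunoproteasome genes were high in Ogg1Tg replicate 3, the library in which the constitutive subunits were low. All 5 genes were highest in Ogg1Tg replicate 3, where 26.3% of all genes were highest in that library, and in Ogg1Tg replicates 1 and 2 all 5 lay inside the Control range. Their median log2 fold change was 0.25 with 4 of 5 above 0, where 47.2% of all genes were. It was −0.07 with 1 of 5 above 0 without that library, where 44.5% of all genes were. The promoters of Psmb8 and Psmb9 are shown because these neighbouring genes of the class II region had the largest departures. Capitals mark TTCNNNGAA, the core of the gamma-activated site, in Psmb8, and CCAAT read on the other strand in Psmb9.
Psmb8, chr17:34197945-34198244, plus strand: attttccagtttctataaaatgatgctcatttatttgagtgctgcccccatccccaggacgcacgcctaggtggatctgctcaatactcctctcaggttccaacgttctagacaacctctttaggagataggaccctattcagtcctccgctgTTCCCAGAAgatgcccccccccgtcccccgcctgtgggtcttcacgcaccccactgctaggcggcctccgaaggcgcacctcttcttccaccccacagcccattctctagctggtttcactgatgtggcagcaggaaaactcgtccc
Psmb9, chr17:34187281-34187580, minus strand: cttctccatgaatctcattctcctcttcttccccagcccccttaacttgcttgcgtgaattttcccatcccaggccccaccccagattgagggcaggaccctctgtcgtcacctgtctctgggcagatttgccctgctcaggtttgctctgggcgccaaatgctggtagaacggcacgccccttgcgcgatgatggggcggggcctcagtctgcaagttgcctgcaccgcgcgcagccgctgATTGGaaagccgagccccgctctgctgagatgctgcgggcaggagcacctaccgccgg
Psmb8, the inducible replacement of Psmb5, lies at chr17:34197721-34201454 on GRCm38 and had 89.97, 102 and 412 scaled reads in Ogg1Tg replicates 1, 2 and 3, against 114, 117 and 75.7 in Control replicates 1, 2 and 3. Psmb9, the replacement of Psmb6, lies at chr17:34181987-34187764 and had 77.8, 47.6 and 314 scaled reads in the Ogg1Tg libraries, against 47.1, 106 and 56.1 in the Control libraries. In both, Ogg1Tg replicate 3 was the highest library and Ogg1Tg replicates 1 and 2 lay inside the Control range. The log2 fold change of Psmb8 was 0.63 ± 0.53 (SE) with an adjusted p of 0.698 in limma, a fold of 1.55 (95% interval 0.674 to 3.55), and the log2 value was −0.07 without Ogg1Tg replicate 3. For Psmb9 it was 0.68 ± 0.64 (SE) with an adjusted p of 0.728 in limma, a fold of 1.6 (95% interval 0.588 to 4.34), and −0.11 without that library. The exons of Psmb9 share 212 bases with Tap1 on the opposite strand, and 14.7% of those of Psmb8 overlap an antisense gene. Whether counting used strand is not given, so reads in those stretches cannot be told apart.

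Psmb10, the replacement of Psmb7, had 217, 213 and 329.9 scaled reads in Ogg1Tg replicates 1, 2 and 3, against 197, 224 and 205 in Control replicates 1, 2 and 3. Ogg1Tg replicate 3 was again the highest library, at a log2 fold change of 0.25 ± 0.22 (SE) and an adjusted p of 0.707 in limma. Of the PA28 genes, Psme1 had 706, 642 and 1024 scaled reads in Ogg1Tg replicates 1, 2 and 3, against 631, 1011 and 874 in Control replicates 1, 2 and 3, a log2 fold change of −0.09 ± 0.23 (SE) and an adjusted p of 0.909 in limma. Psme1 in Control replicate 2 was almost as high as in Ogg1Tg replicate 3. Psme2 had 324, 304 and 473 scaled reads in the Ogg1Tg libraries, against 339.8, 299 and 328 in the Control libraries, a log2 fold change of 0.16 ± 0.20 (SE) and an adjusted p of 0.787 in limma. With Ogg1Tg replicate 3 left out, the log2 values were 0.04 for Psmb10, −0.29 for Psme1 and −0.03 for Psme2. Psme2b, a near copy of Psme2 that is no member, had 70.0, 99.2 and 223 scaled reads in the Ogg1Tg libraries, against 62.4, 96.5 and 65.3 in the Control libraries, and reads of the 2 genes may be split between them.

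The ratio of each inducible subunit to its constitutive counterpart, per kilobase of exon, is given as a description. The length used is the union of all annotated exons. It was 3.381 kb for Psmb8 and 0.899 kb for Psmb5, and 3.66 kb for Psmb9 and 1.872 kb for Psmb6. For Psmb10 and Psmb7 it was 1.705 kb and 3.421 kb. The size of each ratio depends on these lengths, while its order over the libraries does not. Psmb8 stood at 1.12%, 1.46% and 8.25% of Psmb5 in Ogg1Tg replicates 1, 2 and 3, against 1.67%, 1.88% and 1.42% in Control replicates 1, 2 and 3. Psmb9 stood at 1.30%, 0.788% and 8.70% of Psmb6 in the Ogg1Tg libraries, against 0.829%, 2.22% and 1.23% in the Control libraries. Psmb10 stood at 9.61%, 8.44% and 22.5% of Psmb7 in the Ogg1Tg libraries, against 7.55%, 9.92% and 9.20% in the Control libraries. In each pair Ogg1Tg replicate 3 was the highest library, and the constitutive subunit remained the more abundant transcript in every library. The immune cell markers given above were also highest in Ogg1Tg replicate 3, and their part in these ratios was not tested.

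**Figure D4:**
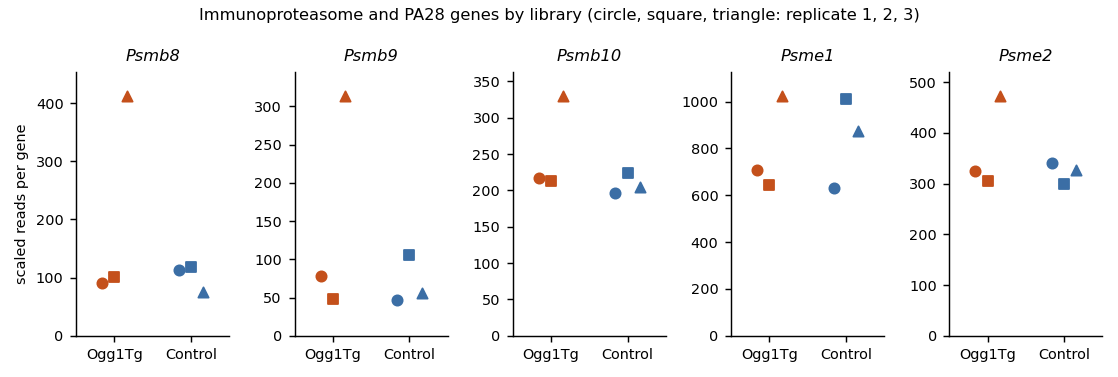
Scaled reads of the 5 immunoproteasome and PA28 genes in each of the 3 Ogg1Tg (left) and 3 Control (right) libraries; circle, square and triangle are replicates 1, 2 and 3, and each axis starts at 0. The triangle of Ogg1Tg replicate 3 is the highest point in each panel, at 412 for Psmb8 and 314 for Psmb9.

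Of the remaining activators and inhibitors, Psme4 and Psmf1 were the only members whose groups did not overlap over all 6 libraries: Psmf1 higher, where 7.03% of all genes had that order, and Psme4 lower, where 11.3% had it. Psmf1 encodes PI31, known as an inhibitor of the core particle in vitro. It had 783, 725 and 769.5 scaled reads in Ogg1Tg replicates 1, 2 and 3, against 557, 625 and 602 in Control replicates 1, 2 and 3. All 3 Ogg1Tg libraries lay above all 3 Control libraries. Psmf1 had a log2 fold change of 0.35 ± 0.13 (SE), a fold of 1.28 (95% interval 1.05 to 1.56), with an unadjusted p of 0.0217 and an adjusted p of 0.353 in limma. Without Ogg1Tg replicate 3 the log2 value was 0.34, with an adjusted p of 0.23.

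The promoter of Psme4 is shown because its groups did not overlap. Capitals mark TGACNNNGC read on the other strand.
Psme4, chr11:30771525-30771824, plus strand: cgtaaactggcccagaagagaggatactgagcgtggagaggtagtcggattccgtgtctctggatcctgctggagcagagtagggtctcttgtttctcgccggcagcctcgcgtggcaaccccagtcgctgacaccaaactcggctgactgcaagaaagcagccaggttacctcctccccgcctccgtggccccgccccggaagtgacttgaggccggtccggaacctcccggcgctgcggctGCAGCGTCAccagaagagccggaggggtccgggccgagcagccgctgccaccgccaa
Psme4 had 24448, 26827 and 16452 scaled reads in Ogg1Tg replicates 1, 2 and 3, against 32101, 29325 and 29249.9 in Control replicates 1, 2 and 3. All 3 Ogg1Tg libraries lay below all 3 Control libraries, replicate 3 lowest. In log2 terms the difference was −0.45 ± 0.21 (SE), a fold of 0.732 (95% interval 0.528 to 1.01), with an adjusted p of 0.472 in limma. Without Ogg1Tg replicate 3 it was −0.24, with an adjusted p of 0.33. Psme3, the nuclear relative of the PA28 genes, had 3017, 2955 and 2385 scaled reads in the Ogg1Tg libraries, against 2733, 2858 and 2948 in the Control libraries, at a log2 fold change of −0.04 ± 0.13 (SE) and an adjusted p of 0.934 in limma.

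The assembly chaperones of the core, Psmg1 to Psmg4, stood at a median of 0.16 in log2 fold change, and those of the base, Psmd5, Psmd9 and Psmd10, ran from 0.03 to 0.24. Psmg2 had 535, 618 and 431 scaled reads in Ogg1Tg replicates 1, 2 and 3, against 439.6, 459 and 454 in Control replicates 1, 2 and 3. Psmg4 had 74.4, 33.1 and 50.3 scaled reads in the Ogg1Tg libraries, against 54.1, 51.8 and 50.9 in the Control libraries. Psmg2 was above every Control library in Ogg1Tg replicates 1 and 2 and below them in replicate 3, while the groups of Psmg4 overlapped in no clear order. Their log2 fold changes were 0.21 ± 0.17 (SE) and −0.06 ± 0.36 (SE), with adjusted p-values of 0.676 and 0.963 in limma. Psmd10, the chaperone gankyrin, had 242, 214 and 189 scaled reads in Ogg1Tg replicates 1, 2 and 3, against 182, 190.2 and 171 in Control replicates 1, 2 and 3, a log2 fold change of 0.24 ± 0.19 (SE) and an adjusted p of 0.673 in limma. Psmd9 had 501, 519 and 314 scaled reads in the Ogg1Tg libraries, against 416, 427 and 433 in the Control libraries, and 25.5% of its exons overlap an opposite-strand gene. Its log2 fold change was 0.03 ± 0.21 (SE) with an adjusted p of 0.973 in limma.

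Taken by library, Ogg1Tg replicate 3 was the lowest of the 6 for 30 of the 31 constitutive core and regulatory subunits. With median-of-ratios rescaling it was the lowest for 27 of 31, and for 6205 of all 23312 genes tested. With quantile normalization, which left the median of all genes in that library at −0.12, it was the lowest for 20 of 31. Under that scaling it was the lowest for 8384 of the 23312 genes tested, and for 6 of the 14 constitutive core genes. The core median in that library was −0.31 as deposited, −0.21 with median-of-ratios rescaling and −0.10 with quantile normalization. The regulatory median was −0.51, −0.41 and −0.21 in the same order. The median of the 12 skeletal muscle markers in that library was −0.87 as deposited, and 0 of 12 were highest there. The part of the muscle markers and of the immune markers in these medians was not tested. The 5 immunoproteasome genes were highest in Ogg1Tg replicate 3 under all 3 scalings.

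Without Ogg1Tg replicate 3, 18 members were higher in both remaining Ogg1Tg libraries than in every Control library, where 13.1% of all genes had that order, and 3 were lower (Psma8, Psmb11 and Psme4), where 17.1% did. Of the 18, 10 were constitutive core genes, 3 regulatory (Psmc2, Psmc6 and Psmd11), 5 other genes (Psme3, Psmf1, Psmg2, Psmd9 and Psmd10), and 0 immunoproteasome genes. The largest of these log2 fold changes was that of Psmb1, followed by Psmb2, a structural beta subunit, at 0.37 with an adjusted p of 0.121 in limma. None of them passed the test.

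**Figure D5:**
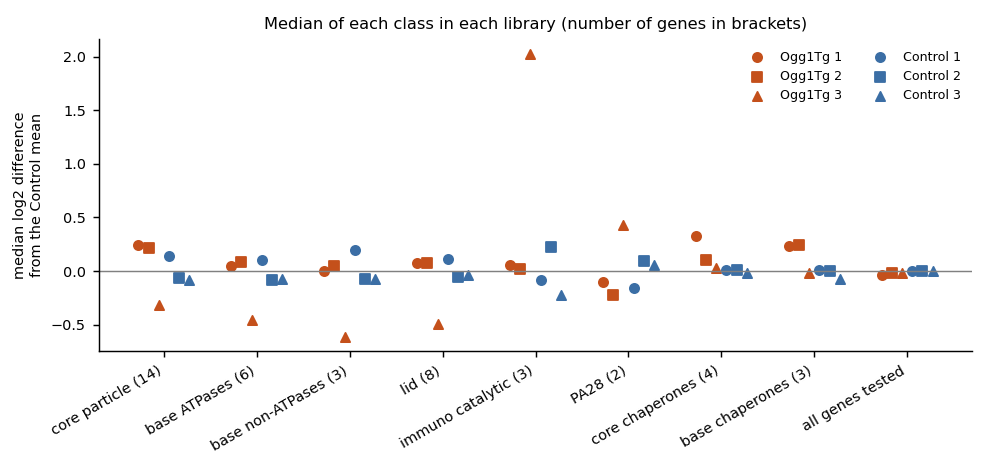
Median log2 difference from the Control mean for each class of proteasome genes and for all genes tested, in each Ogg1Tg (orange) and Control (blue) library; circle, square and triangle are replicates 1, 2 and 3. Ogg1Tg replicate 3 is lowest in the core particle, the ATPases, the other base subunits and the lid, and highest in the inducible catalytic subunits, at 2.03.

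Promoter windows were found for 40 of the 48 genes, as 43 windows, among 32851 windows of all genes. Letters were searched on both strands, and no match overlapped a match of another motif. TGACNNNGC, the antioxidant response element core, was in 6 of the 40 genes (Psmb5, Psmb6, Psmc6, Psmd12, Psmd9 and Psme4), and in 12.4% of all windows. These 6 genes did not share an order of the groups. Over all 6 libraries Psme4 was lower, an order that 11.3% of all genes had. In Psmb5, Psmb6, Psmc6 and Psmd9 Ogg1Tg replicates 1 and 2 were above every Control library, where 13.1% of all genes were. Ogg1Tg replicate 3 was the lowest library for each of these. The groups of Psmd12 overlapped with and without that library. CCAAT, a box bound by NF-Y, was in 14 of the 40, and in 37.4% of all windows. The core of the interferon-stimulated response element (GAAA, then NN, then GAAA) was in 5 (Psmb3, Psmd4, Psmd9, Psme1 and Psmg4), of which 1 is an immunoproteasome gene, and in 3.44% of all windows. TTCNNNGAA, the core of the gamma-activated site, was in 3 (Psmb8, Psmd2 and Psmg1) and in 8.30% of all windows. TGATGNAA, the core of the amino acid response element, was in 1 (Psmd13) and in 3.97% of all windows.

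Genes around the proteasome were read as lists. Of 18 partners outside the name rule, such as shuttle factors and deubiquitinases, 0 passed limma, edgeR or DESeq2. Of all genes, 0.545%, 0.532% and 2.66% did, in the same order. At an unadjusted p under 0.05 in limma 0 were higher, where 4.24% of all genes were, and 0 lower, where 6.78% were. The median log2 fold change of the partners was −0.09, or 0.05 without Ogg1Tg replicate 3. Ecpas, an adaptor that binds the proteasome, had 24572, 28085 and 17664 scaled reads in the Ogg1Tg libraries, against 27348, 24143 and 24896 in the Control libraries, and its log2 fold change was −0.14 with an adjusted p of 0.815 in limma. Zfand5, a zinc finger protein that stimulates the proteasome, had 19107, 19088 and 12568 scaled reads in the Ogg1Tg libraries, against 17513, 14543 and 15165 in the Control libraries, and its log2 fold change was 0.08 with an adjusted p of 0.901 in limma. Both were lowest in Ogg1Tg replicate 3, as were 15 of the 18 in all as deposited, and 13 of 18 with quantile normalization. Of all 23312 genes tested, 30.8% were lowest there as deposited, and 8384 with quantile normalization.

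Of 11 genes of proteasome transcription, 0 passed limma with all libraries, where 0.545% of all genes did. At an unadjusted p under 0.05, 1 was higher, where 4.24% of all genes were, and 1 was lower, where 6.78% were. Nfe2l1, the factor that raises proteasome genes when the proteasome is inhibited, had 45696, 38038 and 27039 scaled reads in Ogg1Tg replicates 1, 2 and 3, against 31413, 31798 and 31381 in Control replicates 1, 2 and 3. Ogg1Tg replicates 1 and 2 were above the Control libraries, which lay close together, and Ogg1Tg replicate 3 was below them. The log2 fold change of Nfe2l1 was 0.19 ± 0.22 (SE) with an adjusted p of 0.762, and 0.40 without Ogg1Tg replicate 3, with an adjusted p of 0.118, both in limma. Vcp, the ATPase that extracts ubiquitinated proteins, had 19393, 19678 and 14249 scaled reads in the Ogg1Tg libraries, against 22654, 19037 and 19620.0 in the Control libraries, at a log2 fold change of −0.21 and an adjusted p of 0.697 in limma. Mafg, a DNA-binding partner of Nfe2l1 and Nfe2l2 and chosen after its values were seen, had 4783, 4508 and 3534 scaled reads in Ogg1Tg replicates 1, 2 and 3, against 2886, 2992 and 2711 in Control replicates 1, 2 and 3. All Ogg1Tg libraries were above all Control libraries, at a log2 fold change of 0.57 ± 0.14 (SE) and an adjusted p of 0.178 in limma. Without Ogg1Tg replicate 3 Mafg rose by 0.70 on the log2 scale, with an adjusted p of 0.00431 in limma, and DESeq2 on all libraries called it at an adjusted p of 0.00175.

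Of 6 ubiquitin and E1 genes, 0 passed limma, and at an unadjusted p under 0.05 1 was higher and 1 lower, where 4.24% and 6.78% of all genes were. DESeq2 on all libraries called 2 of the 6, where it called 2.66% of all genes. The groups did not overlap for 1 higher gene, where 7.03% of all genes had that order, and for 3 lower, where 11.3% did. In limma the log2 fold changes of the list ran from −1.06 to 0.56. Rps27a, which encodes ubiquitin fused to a ribosomal protein and was chosen after its values were seen, had 1832, 1734 and 1738 scaled reads in the Ogg1Tg libraries, against 1384, 1199 and 1034 in the Control libraries. Its log2 fold change was 0.61 in DESeq2, with an adjusted p of 0.00779, against an adjusted p of 0.168 in limma. Ubb, a polyubiquitin gene, had 57371, 49166 and 31843 scaled reads in the Ogg1Tg libraries, against 65888, 36966 and 36271 in the Control libraries, at a log2 fold change of 0.01 ± 0.31 (SE) and an adjusted p of 0.996 in limma. Of 12 muscle ubiquitin ligases, 0 passed limma or DESeq2, with 0 higher and 3 lower at an unadjusted p under 0.05 in limma, where 4.24% of all genes were higher and 6.78% lower. Their median log2 fold change was −0.25, or −0.07 without Ogg1Tg replicate 3, and 10 of 12 were lowest in that library as deposited, or 8 of 12 with quantile normalization. Of all 23312 genes tested, 30.8% were lowest there as deposited, and 8384 with quantile normalization. Fbxo32 and Trim63, the ligases best known from muscle atrophy, are given although the naming rule does not pick them. Fbxo32 had 20279.6, 19638 and 10026 scaled reads in the Ogg1Tg libraries, against 23221, 31329.9 and 25247 in the Control libraries. Its Ogg1Tg libraries all lay below the Control libraries, an order that 11.3% of all genes had, at a log2 fold change of −0.73 ± 0.28 (SE) and an adjusted p of 0.368 in limma, and at −0.40 without Ogg1Tg replicate 3, with an adjusted p of 0.177. Trim63 had 9554, 10091 and 5069 scaled reads in the Ogg1Tg libraries, against 13941, 13202 and 10140.2 in the Control libraries. The groups did not overlap for it either, at a log2 fold change of −0.64 ± 0.26 (SE) and an adjusted p of 0.409 in limma, and at −0.33 without Ogg1Tg replicate 3, with an adjusted p of 0.303. Nedd4 had 32422, 34413 and 23900.2 scaled reads in the Ogg1Tg libraries, against 39632, 33749.8 and 37645 in the Control libraries, with an adjusted p of 0.61 in limma. Fbxo40, a ligase of muscle, had 23129.9, 24189 and 14723 scaled reads in the Ogg1Tg libraries, against 26946, 24413 and 23393 in the Control libraries, with an adjusted p of 0.641 in limma.

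Of 14 genes of class I antigen presentation, the route that takes up immunoproteasome products, 0 passed limma or DESeq2, where 0.545% and 2.66% of all genes did. At an unadjusted p under 0.05 in limma 1 was higher and 0 lower, where 4.24% of all genes were higher and 6.78% lower. Their median log2 fold change was 0.25, or −0.03 without Ogg1Tg replicate 3, and 11 of 14 were highest in that library, where 26.3% of all genes were. Tap1, which carries peptides into the endoplasmic reticulum, shows this pattern and was chosen after its values were seen: it had 173, 193 and 1200.0 scaled reads in the Ogg1Tg libraries, against 182, 333 and 211 in the Control libraries. The chaperones Canx and Calr, the most abundant of the list, did not share it as deposited, whereas with quantile normalization all 14 genes were highest in Ogg1Tg replicate 3. Canx had 7707, 6347 and 6242 scaled reads in the Ogg1Tg libraries, against 5799, 5567 and 6145 in the Control libraries, with an adjusted p of 0.606 in limma, and Calr had 6235, 5978 and 5886 scaled reads in the Ogg1Tg libraries, against 6046, 5865 and 5759 in the Control libraries, with an adjusted p of 0.931 in limma.

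Of 24 tested interferon response genes, 1 passed limma with all libraries, where 0.545% of all genes did, and 2 passed DESeq2, where 2.66% did. As deposited, 11 of the 24 were highest in Ogg1Tg replicate 3, where 26.3% of all genes were. Cxcl10, an interferon-induced chemokine, had 140.0, 95.2 and 86.5 scaled reads in Ogg1Tg replicates 1, 2 and 3, against 22.2, 11.2 and 20.9 in Control replicates 1, 2 and 3. All 3 Ogg1Tg libraries were above all 3 Control libraries, and Cxcl10 rose by 2.53 ± 0.39 (SE) on the log2 scale, with an adjusted p of 0.0295 in limma, and by 2.67 without Ogg1Tg replicate 3, with an adjusted p of 0.0133. That call was lost with any other single library left out, at adjusted p values of 0.147 without Ogg1Tg replicate 1, 0.0631 without Ogg1Tg replicate 2, and 0.104, 0.141 and 0.109 without Control replicates 1, 2 and 3. It was also lost with no variance trend, at an adjusted p of 0.0985. The median of the list was 0.02, or −0.21 without Ogg1Tg replicate 3. Jak2, a kinase of the interferon gamma receptor, had 2679, 3473 and 2038 scaled reads in the Ogg1Tg libraries, against 5295, 4747 and 4938 in the Control libraries. It was lower in every Ogg1Tg library, at −0.90 ± 0.19 (SE) and an adjusted p of 0.102 in limma, and fell by 0.71 on the log2 scale without Ogg1Tg replicate 3, with an adjusted p of 0.0154. Jak1, the partner kinase, had 9144, 11423 and 9713 scaled reads in the Ogg1Tg libraries, against 11689, 9687 and 10098 in the Control libraries, with an adjusted p of 0.909 in limma.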

How the data were processed

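The labels' protocols name the RNeasy mini kit and the NuGen Ovation Universal kit. Trimmomatic, SAMtools, HTSeq and mm10 come from the submitters' processing notes; the aligner, annotation and strand setting are not given. Despite file names with FPKM, each deposited value is a signal: a gene count divided by the authors by 1 factor per library. All values were whole multiples of 1 step per library (100% within 0.01 of a read), although a step of 1.006 makes this less telling for Ogg1Tg replicate 3. There were 37315 entries, of which 1824 without a gene name (2.38% to 3.54% of reads) were not tested, 24 carried dates as symbols, and 13 symbols were repeated. Coordinates and exon lengths come from GENCODE M21 on GRCm38. All pairs of libraries differed beyond sampling noise (smallest chi-square per gene 12.9).

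Genes with a mean of at least 1 were fitted with limma 3.58.1 in R 4.3.3 on log2(value + 1), a scale on which folds of low genes are understated, with a variance trend, two-sided tests and Benjamini-Hochberg adjustment over all genes. Calls were made at an adjusted p under 0.05. Alternatives were edgeR 4.0.16 and DESeq2 1.42.0 on recovered reads, other scalings, filters, trends and a pseudocount of 0.1, the replicate number as a block, and leaving out each library in turn. The fits were tested on simulated data. The members, gene lists and naming rule were chosen with earlier results of these data known. Members named singly are the catalytic and inducible subunits, the highest and lowest log2 fold change of each role and the smallest p-values. Of the other lists, called members, the 2 with the highest mean and Nfe2l1 are named, except genes that are not reported here.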

Additional observations from a re-analysis of the deposited data

How the results depend on the processing

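The count of members called was 0 in every alternative run. The count of all genes called, 127, was 46 with no variance trend, 619 in DESeq2, 402 in edgeR without Ogg1Tg replicate 3, 102 with the replicate block, and between 35 and 425 with each library left out. The labels give no pairing of same-numbered libraries beyond the number. Their deviations correlated at −0.0534, −0.0051 and 0.0306, which cannot show whether they shared a litter or a batch. The core median was 0.24 in edgeR without Ogg1Tg replicate 3. The immunoproteasome median ran from −0.07 to 0.36 with each library left out, and was −0.07 without Ogg1Tg replicate 3. Of 679 alternative values for the 40 genes that the naming rule picks, 606 kept their direction and side of the threshold, 6 of Cxcl10 lost the call, 5 of Jak2 gained one, and 62, of 20 genes and none called, changed sign at sizes up to 0.22. The cause was not tested.

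With median-of-ratios rescaling the log2 fold change was 0.0054 for Psma7 and 0.017 for Psme3. With quantile normalization the log2 fold change was 0.15 for Ecpas, 0.20 for Jak1, 0.017 for Psma7, −0.023 for Psmd9, 0.074 for Psme3 and 0.050 for Vcp. In edgeR the log2 fold change was 0.022 for Jak1, 0.043 for Psma7, 0.030 for Psmb11, 0.014 for Psmb4, 0.0084 for Psme1, 0.044 for Psme3 and 0.094 for Psmg4. In DESeq2 the log2 fold change was 0.021 for Psma7, 0.0036 for Psmb11, 0.021 for Psme3 and 0.071 for Psmg4. In edgeR without Ogg1Tg replicate 3 the log2 fold change was 0.093 for Ecpas, 0.015 for Jak1, 0.16 for Psma7, 0.16 for Psmb4, 0.060 for Psmb7, −0.049 for Psmb8, −0.10 for Psmb9, 0.078 for Psmd4, 0.11 for Psme3 and 0.10 for Psmg4. With each library left out in turn, log2 fold changes that changed sign ran from −0.29 to 0.047 for Ecpas, −0.15 to 0.023 for Jak1, −0.19 to 0.11 for Psma7, −0.14 to 0.0029 for Psmb11, −0.21 to 0.12 for Psmb4, −0.046 to 0.30 for Psmb5, −0.11 to 0.27 for Psmb6, −0.37 to 0.017 for Psmb7, −0.068 to 1.02 for Psmb8, −0.11 to 1.24 for Psmb9, −0.059 to 0.11 for Psmc6, −0.30 to 0.040 for Psmd4, −0.10 to 0.26 for Psmd9, −0.29 to 0.060 for Psme1, −0.035 to 0.28 for Psme2, −0.10 to 0.070 for Psme3, −0.35 to 0.22 for Psmg4, −0.17 to 0.29 for Ubb and −0.019 to 0.28 for Zfand5.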
